A study of Mus musculus with 18 samples.

Results

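The chemokines and chemokine receptors described here are 39 genes, 27 ligands and 12 receptors, chosen by gene symbol from a written list and all found among the 54532 genes of the deposited tables. Poly(A) RNA was sequenced in 18 libraries from C57BL/6 mice, of which 8 came from colorectal tumours induced with azoxymethane and dextran sulfate sodium (DSS) and 10 from distal colon in acute colitis. Colitis followed 5 days of 2.5% DSS, a polymer that injures the colon epithelium, and 2 days of plain water, and was sampled as a 0.5 cm piece of distal colon. Each tissue held 4 groups, namely Il1f9-/- and Il1f9+/+ mice of one line and Il1f5-/- and Il1f5+/+ mice of another, written here as KO and WT. The 2 Il1f5 colitis groups had 3 libraries each and the other 6 groups had 2 each. All mice received DSS, so no group shows untreated colon, and the sources used here give no ages. The design text counts as many mice as libraries in the colitis groups, but the labels tie no library to an animal, so p-values measure the spread between these libraries. Il1f9 encodes IL-36 gamma, an agonist of the IL-36 receptor, and Il1f5 encodes the receptor's antagonist.

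Chemokines are small secreted proteins that draw leukocytes along a gradient by binding G protein-coupled receptors on their surface. Ligands of the CXC class with an ELR motif, such as Cxcl1, Cxcl2 and Cxcl5, attract neutrophils through Cxcr2, while CC ligands such as Ccl2 and Ccl7 attract monocytes through Ccr2 and Ccl11 and Ccl24 attract eosinophils. In the gut, Ccl20, Ccl25 and Ccl28 come mainly from epithelium, Cxcl12 and Cxcl13 come largely from stromal cells, and Cxcl13 with Cxcr5 organises B cell follicles.

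Library totals ran from 16621611 to 23776174 counts, and values are given as CPM, counts scaled to one common library size by TMM over the 18 libraries, where 3 counts correspond to 0.126 to 0.184 CPM. A count of 0 allows up to 3 counts, a limit that covers counting error alone. Il1f9 had 0.120 and 0 CPM in Il1f9 KO tumours, against 101 and 43.1 CPM in Il1f9 WT tumours, and 0.532 and 0.0497 CPM in Il1f9 KO colitis, against 11.7 and 4.43 CPM in Il1f9 WT colitis. Il1f5 had 211 and 102 counts in the tumour libraries labelled Il1f5 KO and 36, 43 and 45 counts in the colitis libraries labelled Il1f5 KO, against 0 counts in every Il1f5 WT library and in each of the 8 Il1f9-line libraries. The Il1f5 data thus show no loss of the targeted gene, and every Il1f5 direction below is that of the libraries labelled Il1f5 KO. Whether the labels of this line are exchanged, or the counted exons lie outside the deleted part, was not tested. Exchanged labels would turn every KO against WT direction of the Il1f5 line and change which of its libraries stand as WT in the comparisons of lines. The 7 colon epithelium markers summed to 8232 CPM or more in every library, a sum that does not tell tumour from colon. The tumours of each line stand in a table of their own and the colitis libraries in another, and no batch is labelled, so that tissue or line and handling cannot be told apart.

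Compared per length, with the authors' FPKM values, the most abundant members in tumours were Cxcl5 with a median of 267 FPKM over 8 libraries, Cxcl2 with 101 and Ccl6 with 81.3. In colitis they were Ccl6 with a median of 128 FPKM over 10 libraries, Ccl8 with 39.96 and Cxcl5 with 29.7. Summed over the 39 genes, the level was 2132 to 5648 CPM in the 4 Il1f9-line tumours and 787 to 949 CPM in the 4 Il1f5-line tumours. It was 642 to 673 CPM in Il1f9 KO colitis, against 1288 to 1304 CPM in Il1f9 WT colitis, and 885 to 1141 CPM in colitis libraries labelled Il1f5 KO, against 810.1 to 957 CPM in Il1f5 WT colitis. Such a sum follows the most abundant members and does not describe each gene. Ccl25, Ccl28, Ccr10 and Cxcl12 were lower in Il1f9 WT than in Il1f5 WT tumours, as given below. Ccl19, a lymphoid ligand of Ccr7, was at 0 in 15 of 18 libraries and reached 0.796 CPM, and Cxcl17, a mucosal ligand, reached 0.422 CPM. These 2 genes passed the filter on low counts in no comparison, whereas 36 members passed it within each tissue and 37 over both tissues together.

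The promoters shown are those of 5 of the 6 ligands with the largest fold changes between the WT tumours of the lines, described below, namely Cxcl2, Ccl4, Cxcl3, Ccl3, Cxcl1 and Ccl20. Ccl4 had no entry in the promoter table. Of the 39 members, 27 had a promoter in the RefSeq table of build GRCm38.p6, covering 250 bases before to 50 bases after the start. Capitals mark the match to the NF-kappa-B consensus, searched on both strands, extended in Cxcl1, Cxcl2 and Cxcl3 by the overlapping match on the other strand, and Ccl3 held no match in this window.
Cxcl1 (chr5:90890995-90891294, + strand): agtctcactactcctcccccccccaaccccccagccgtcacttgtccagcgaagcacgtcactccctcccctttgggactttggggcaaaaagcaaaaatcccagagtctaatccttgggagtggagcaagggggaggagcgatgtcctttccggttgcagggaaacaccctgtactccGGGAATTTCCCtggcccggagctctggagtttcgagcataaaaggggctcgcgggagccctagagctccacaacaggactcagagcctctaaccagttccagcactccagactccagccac
Cxcl2 (chr5:90903649-90903948, + strand): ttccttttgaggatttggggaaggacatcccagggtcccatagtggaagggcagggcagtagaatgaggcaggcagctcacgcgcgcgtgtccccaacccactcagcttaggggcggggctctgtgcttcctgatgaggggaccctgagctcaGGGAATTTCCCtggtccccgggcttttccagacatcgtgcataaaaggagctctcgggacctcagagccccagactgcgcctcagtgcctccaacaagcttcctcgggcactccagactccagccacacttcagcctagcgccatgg
Cxcl3 (chr5:90785851-90786150, + strand): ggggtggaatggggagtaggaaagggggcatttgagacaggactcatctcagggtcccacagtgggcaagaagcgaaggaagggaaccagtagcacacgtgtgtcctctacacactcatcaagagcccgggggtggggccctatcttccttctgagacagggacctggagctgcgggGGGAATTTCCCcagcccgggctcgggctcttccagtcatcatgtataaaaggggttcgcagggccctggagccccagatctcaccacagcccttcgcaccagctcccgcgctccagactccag
Ccl20 (chr1:83116516-83116815, + strand): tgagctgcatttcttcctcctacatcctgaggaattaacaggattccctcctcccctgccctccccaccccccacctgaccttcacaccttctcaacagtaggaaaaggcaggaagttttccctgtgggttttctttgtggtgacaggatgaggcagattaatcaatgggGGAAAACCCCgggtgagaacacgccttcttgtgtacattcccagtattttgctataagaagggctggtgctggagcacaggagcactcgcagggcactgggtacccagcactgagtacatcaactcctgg
Ccl3 (chr11:83649329-83649628, - strand): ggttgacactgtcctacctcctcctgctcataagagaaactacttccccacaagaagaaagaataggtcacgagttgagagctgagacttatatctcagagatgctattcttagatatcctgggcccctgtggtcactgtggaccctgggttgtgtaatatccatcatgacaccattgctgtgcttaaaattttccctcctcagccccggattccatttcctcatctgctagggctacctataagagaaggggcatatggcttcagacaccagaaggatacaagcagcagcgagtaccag
Cxcl1, Cxcl2 and Cxcl3 shared the run GGGAATTTCCC, which began 71, 97 and 73 bases before their starts. The 27 members had 29 promoters, since Ccl25 and Ccr6 have 2 each. The form GGGAATTTCC, read from the Cxcl1 promoter, stood in 3 of them, those of Cxcl1, Cxcl2 and Cxcl3, and in 0.0883% of all 32851 promoters in the table. As Cxcl1 gave the form and the 3 genes are neighbours on chromosome 5, these shares are no test of the members. The consensus as a whole matched in 7 of the 29 promoters (24.1%), against 8.46% of all promoters, the others being those of Ccl20, Ccl9 and Ccr1 and 1 of Ccr6. As 3 of the 7 are those of the neighbours Cxcl1, Cxcl2 and Cxcl3 with their shared run, this share is no test of the members either. In Ccl20 the match lay on the opposite strand, 80 to 71 bases before the start. A match describes these letters and no binding.

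**Figure D1:**
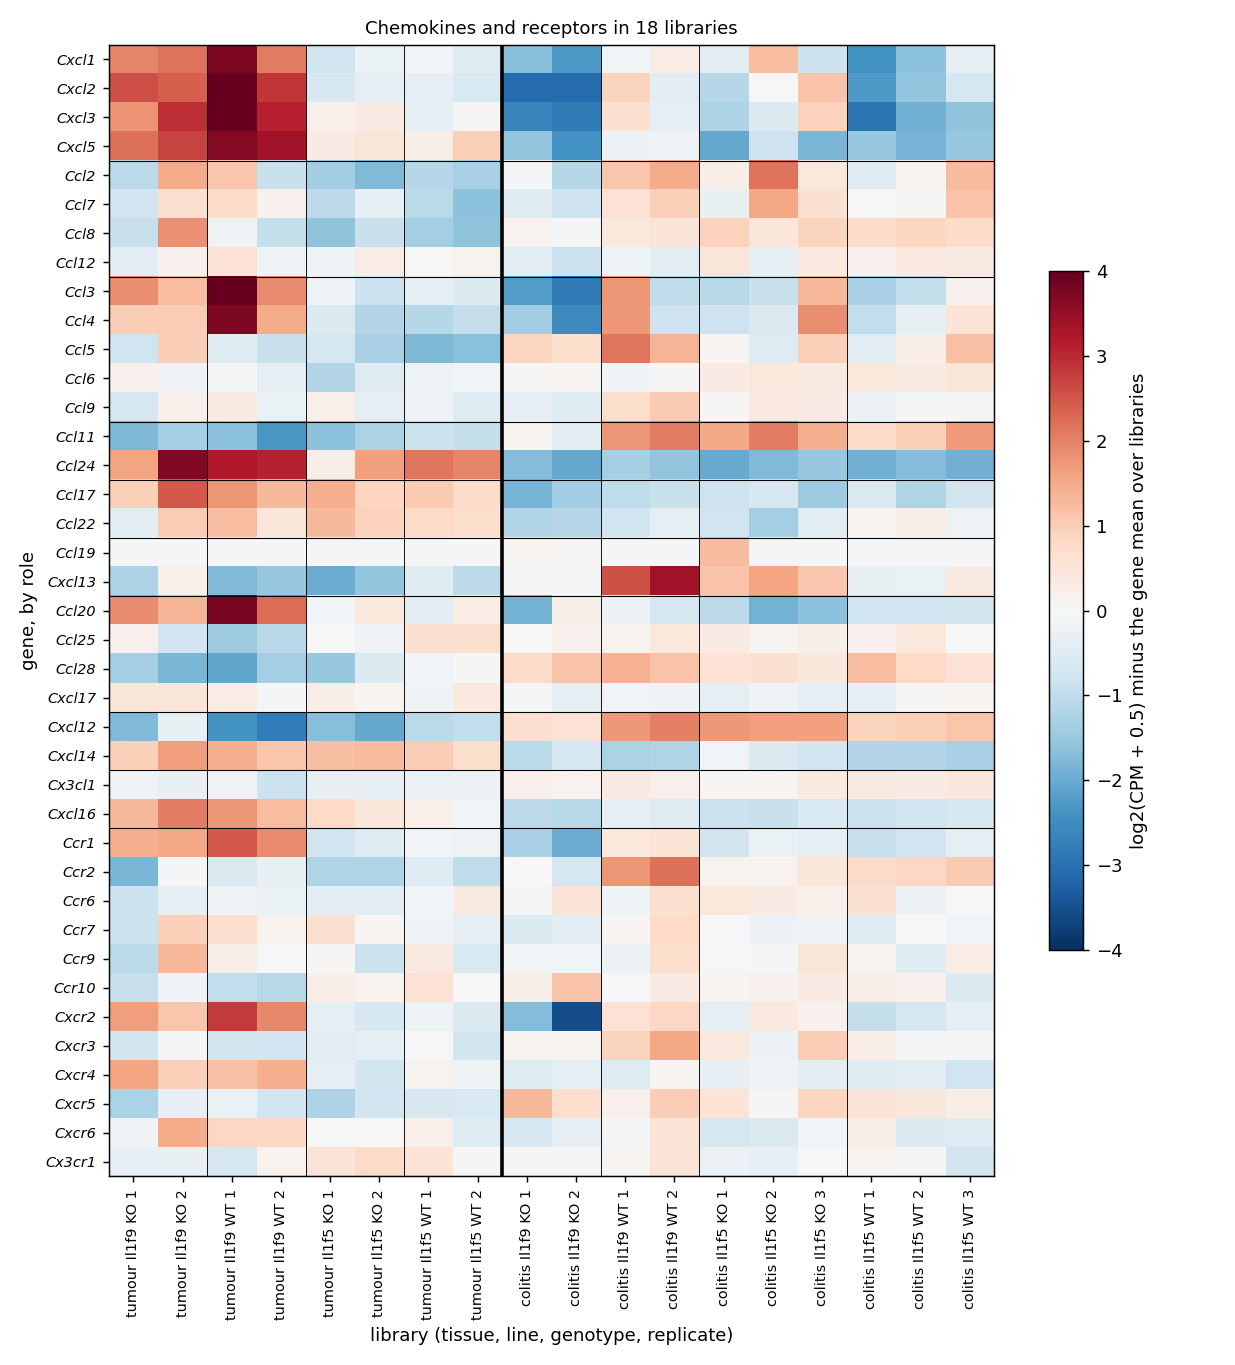
Level of the 39 members in the 18 libraries, as log2(CPM + 0.5) minus the gene's mean over libraries, with genes grouped by role down the page and libraries by tissue, line, genotype and replicate across. The 4 Il1f9-line tumours are red for Cxcl1, Cxcl2, Cxcl3, Cxcl5, Ccl20, Ccr1 and Cxcr2, the 2 Il1f9 KO colitis libraries are blue for the same genes except Ccl20, and Cxcl12 and Ccl11 are lower in every tumour than in every colitis library.

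In colitis, Il1f9 KO was compared with Il1f9 WT to ask which chemokines differ between mice without and with Il1f9. These groups also differed on chromosome 11, while Il1f9 lies on chromosome 2. There Nlrp1b had a log2 fold change of -5.50 ± 0.27 (SE) in Il1f9 KO colitis and -3.52 ± 0.19 in colitis labelled Il1f5 KO. Slfn8 had -4.61 ± 0.44 and -4.29 ± 0.33. The called members Cxcl16, Ccl9, Ccl11 and Ccr7 also lie on chromosome 11. Nlrp1b starts at base 71153102 and Slfn8 at 83002158. Cxcl16 starts at 70453983, Ccl11 at 82057823, Ccl9 at 83572919 and Ccr7 at 99144196. Whether the difference in Nlrp1b and Slfn8 bears on these members was not tested. In Il1f9 KO colitis 12 of 36 tested members fell and 0 rose by edgeR's quasi-likelihood test at a Benjamini-Hochberg adjusted p under 0.05, where 9.98% of all tested genes fell and 9.59% rose. The neutrophil ligands Cxcl2, Cxcl3 and Cxcl5, the neutrophil receptor Cxcr2, the monocyte receptors Ccr2 and Ccr1, the eosinophil ligand Ccl11 and the stromal ligands Cxcl13 and Cxcl12 were among them. The median log2 fold change of the 36 members was -1.06, against -0.01 over all genes. By unadjusted p under 0.05, 16 members were lower and 0 higher, and by DESeq2 15 were lower and 0 higher. Shares of all genes were counted only for adjusted p in edgeR with the filter, here and below. Without the filter on low counts 9 of the 12 calls were kept, and those of the 3 neutrophil ligands were lost. In bulk tissue, fewer cells of a type and less RNA per cell cannot be told apart. The share of all genes without overlap between groups was not counted, so a lack of overlap, here and below, only describes the libraries.

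Of the 4 neutrophil ligands, 3 fell with the filter on low counts and none passed without it. Cxcl2 (ENSMUSG00000058427, chromosome 5, 90903871 to 90905938), made by macrophages and epithelium on inflammatory signals, had 8.75 and 8.64 CPM in Il1f9 KO colitis, against 144 and 56.5 CPM in Il1f9 WT colitis. Cxcl3 (ENSMUSG00000029379, chromosome 5, 90786103 to 90789600), a close relative, had 1.95 and 1.64 CPM in KO, against 22.7 and 11.4 CPM in WT. Cxcl5 (ENSMUSG00000029371, chromosome 5, 90759360 to 90761624), an epithelial ligand of Cxcr2, had 53.6 and 29.6 CPM in KO, against 135 and 142 CPM in WT. Both KO libraries lay below both WT libraries for all 3 ligands, with log2 fold changes of -3.52 ± 0.96 (SE) for Cxcl2, -3.25 ± 0.86 for Cxcl3 and -1.74 ± 0.44 for Cxcl5 (adjusted p = 0.0459, 0.0365 and 0.0331). Cxcl1 (ENSMUSG00000029380, chromosome 5, 90891241 to 90893115), the other ligand of the group, had 8.81 and 5.66 CPM in KO, against 27.6 and 36.3 CPM in WT, without a call (-2.15 ± 0.94, adjusted p = 0.161). Cxcr2 (ENSMUSG00000026180, chromosome 1, 74153989 to 74161246), the receptor of these ligands, had 3.19 and 0.546 CPM in KO, against 17.6 and 21.1 CPM in WT, with no overlap (log2 fold change -3.41 ± 0.59, adjusted p = 0.00595). The 7 neutrophil markers, which include S100a8 and S100a9, all fell and summed to 29.6 to 82.2 CPM in KO, against 662 to 1218 CPM in WT. Their part in the ligand result was not tested. Without the filter the adjusted p was 0.0810 for Cxcl2, 0.0885 for Cxcl3 and 0.0810 for Cxcl5. With 1 library left out, the adjusted p rose above 0.05 for Cxcl2 (adjusted p = 0.145 omitting WT 1, 0.0906 omitting WT 2, 0.192 omitting KO 1 and 0.194 omitting KO 2), Cxcl3 (0.114 omitting WT 1, 0.0839 omitting WT 2, 0.166 omitting KO 1 and 0.185 omitting KO 2) and Cxcl5 (0.0872 omitting WT 1, 0.146 omitting WT 2, 0.0538 omitting KO 1 and 0.156 omitting KO 2). Single libraries moved the log2 fold change of Cxcl2 between -4.05 omitting WT 2 and -2.70 omitting WT 1 and Cxcr2 between -5.13 omitting KO 1 and -2.61 omitting KO 2.

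**Figure D2:**
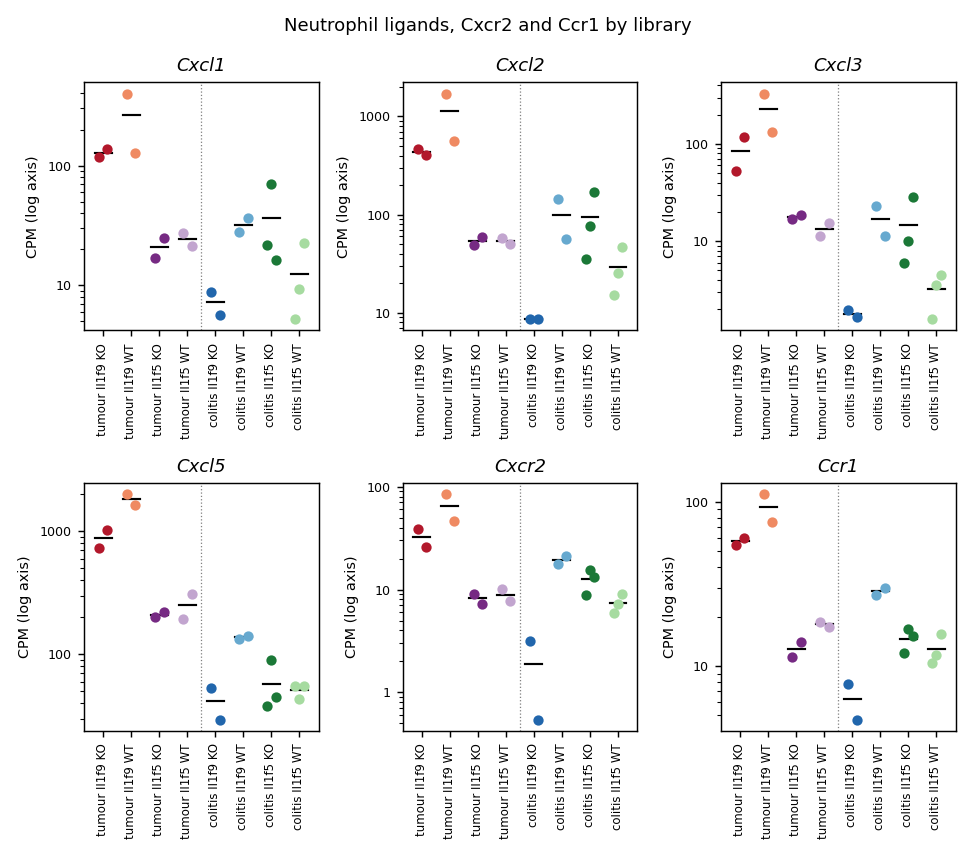
CPM on a log axis of Cxcl1, Cxcl2, Cxcl3, Cxcl5, Cxcr2 and Ccr1 in every library of the 8 groups (points) with the group mean (bars). For each gene the Il1f9 KO colitis points lie below the Il1f9 WT colitis points, and the 4 Il1f9-line tumours lie above the 4 Il1f5-line tumours.

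None of the 4 monocyte ligands was called. Ccl2 (ENSMUSG00000035385, chromosome 11, 82035571 to 82037453), the main monocyte attractant, had 13.8 and 6.31 CPM in Il1f9 KO colitis, against 32.03 and 42.04 CPM in Il1f9 WT colitis. Ccl7, which shares its receptor, had 10.1 and 7.996 CPM in KO, against 21.96 and 28.6 CPM in WT. The groups did not overlap for either gene, but the log2 fold changes of -1.89 ± 0.91 and -1.49 ± 0.65 did not pass (adjusted p = 0.197 and 0.157). Their receptor Ccr2 (ENSMUSG00000049103, chromosome 9, 124101950 to 124113557), carried by inflammatory monocytes, had 12.6 and 7.65 CPM in KO, against 43.9 and 58.9 CPM in WT (log2 fold change -2.35 ± 0.24, adjusted p = 0.000183). Ccr1 (ENSMUSG00000025804, chromosome 9, 123962124 to 123968692), a receptor of monocytes and neutrophils for Ccl3, Ccl6 and Ccl9, had 7.81 and 4.72 CPM in KO, against 27.2 and 29.9 CPM in WT (log2 fold change -2.20 ± 0.26, adjusted p = 0.000464). Both receptors were lower in each KO library than in each WT library. Among the 5 ligands of Ccr1 and its relatives, Ccl9, a macrophage product, fell, with 29.2 and 25.7 CPM in KO, against 60.1 and 76.6 CPM in WT (log2 fold change -1.32 ± 0.15, adjusted p = 0.000351). Ccl3, an inflammatory macrophage product, had 0.946 and 0.447 CPM in KO, against 22.4 and 2.81 CPM in WT, and its log2 fold change of -4.19 ± 1.52 did not pass (adjusted p = 0.102). Ccl4, a relative, had 1.83 and 0.546 CPM in KO, against 19.8 and 2.95 CPM in WT, and WT 1 held the higher WT value of both genes. The monocyte ligands Ccl8 and Ccl12 were not called, at log2 fold changes of -0.43 ± 0.16 and -0.49 ± 0.42, nor was Ccl5, a T cell and macrophage product, at -1.05 ± 0.61. Ccl6, a ligand of Ccr1 in mice, had 183 and 188 CPM in KO, against 163 and 186 CPM in WT, and the groups overlapped. Of 9 monocyte and macrophage markers 8 fell, and the list summed to 243 to 301 CPM in KO, against 910.1 to 1121 CPM in WT, a part that was not tested.

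Ccl11 (ENSMUSG00000020676, chromosome 11, 82057823 to 82062955), or eotaxin, had 9.76 and 6.56 CPM in Il1f9 KO colitis, against 32.2 and 39.4 CPM in Il1f9 WT colitis (log2 fold change -2.14 ± 0.36, adjusted p = 0.00514). Ccl24, the other eosinophil ligand, stayed under 1 CPM in every colitis library and was not tested within colitis. None of the 3 tested eosinophil markers was called. Cxcl13 (ENSMUSG00000023078, chromosome 5, 95956951 to 95961068), the B cell follicle ligand, had 8.10 and 8.14 CPM in KO, against 52.2 and 92.3 CPM in WT (log2 fold change -3.15 ± 0.33, adjusted p = 0.000464). Cxcr5, its receptor on B cells, had 4.91 and 3.03 CPM in KO, against 2.01 and 3.89 CPM in WT, with overlapping groups and no call (0.42 ± 0.39, adjusted p = 0.489), and none of 6 B cell markers was called. Cxcl12 (ENSMUSG00000061353, chromosome 6, 117168535 to 117181367), a constitutive stromal ligand, had 60.8 and 57.1 CPM in KO, against 127 and 156 CPM in WT (log2 fold change -1.27 ± 0.12, adjusted p = 0.000110). Its receptor Cxcr4 had 7.99 and 8.74 CPM in KO, against 7.81 and 12.5 CPM in WT, and the groups overlapped. Cxcl14, the other stromal ligand, had 19.2 and 25.6 CPM in KO, against 16.97 and 17.9 CPM in WT, with no overlap and no call (0.36 ± 0.20, adjusted p = 0.238). All 3 called ligands were lower in both KO libraries than in either WT library. Fibroblast markers fell in 3 of 5 cases and summed to 542 to 726 CPM in KO, against 908 to 1224 CPM in WT, and endothelial markers fell in 4 of 5, at 103 to 115 CPM in KO, against 178 to 232 CPM in WT. Smooth muscle markers rose in 5 of 5 cases, at 3445 to 3823 CPM in KO, against 1194 to 2154 CPM in WT, and the part of these cell types was not tested.

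The epithelial ligands were not called in Il1f9 KO colitis. Ccl20, the ligand of Ccr6, had 0.710 and 4.87 CPM in KO, against 3.37 and 2.31 CPM in WT, with 1 KO library on either side of both WT libraries. Ccl25, which draws Ccr9-bearing lymphocytes to the gut, had 8.64 and 9.63 CPM in KO, against 9.47 and 11.4 CPM in WT. Ccl28, a mucosal ligand of Ccr10, had 65.1 and 84.2 CPM in KO, against 99.7 and 84.1 CPM in WT. The values of both ligands overlapped between the groups, with log2 fold changes of -0.19 ± 0.19 for Ccl25 and -0.30 ± 0.19 for Ccl28. Their receptors were low: over all 18 libraries Ccr6 ran from 0.0602 to 1.08 CPM, Ccr9 from 0.120 to 2.76 CPM and Ccr10 from 0.459 to 4.02 CPM. Cxcl16, a membrane-bound ligand that is also a scavenger receptor, fell, with 21.8 and 21.1 CPM in KO, against 36.1 and 31.7 CPM in WT (log2 fold change -0.66 ± 0.14, adjusted p = 0.00693). Its receptor Cxcr6, found on T and NK cells, had 1.36 and 1.84 CPM in KO, against 2.32 and 3.84 CPM in WT and was not called (-0.94 ± 0.42, adjusted p = 0.141). Cx3cl1, or fractalkine, had 82.5 and 78.7 CPM in KO, against 89.7 and 83.7 CPM in WT. Cx3cr1, its receptor on resident macrophages, had 9.40 and 8.44 CPM in KO, against 9.67 and 13.04 CPM in WT. Neither was called, although the groups did not overlap (-0.11 ± 0.11, adjusted p = 0.546 for Cx3cl1 and -0.35 ± 0.27, adjusted p = 0.394 for Cx3cr1). Ccr7, the lymph node homing receptor, fell, with 2.90 and 3.18 CPM in KO, against 4.73 and 7.97 CPM in WT (log2 fold change -1.06 ± 0.29, adjusted p = 0.0265). Beside these genes 3 of 7 colon epithelium markers rose and 2 of 4 dendritic cell markers fell, a part that was not tested. When libraries were left out singly, the call was lost for Ccr7 (adjusted p = 0.243 omitting WT 2, 0.133 omitting KO 1 and 0.0973 omitting KO 2). Fitted on these 4 libraries alone, Ccr7 had an adjusted p of 0.0618.

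In colitis, the comparison of libraries labelled Il1f5 KO with Il1f5 WT asked which chemokines differ where the gene of the IL-36 receptor antagonist is labelled as deleted. There, 5 of 36 tested members rose and 2 fell, where 13.7% of all tested genes rose and 11.0% fell. The share that rose was near that of all genes. The members that rose were the stromal ligands Cxcl12 and Cxcl14, the follicle ligand Cxcl13, the neutrophil ligand Cxcl3 and the macrophage ligand Ccl9. The members that fell were Ccl22, a ligand of Ccr4 made by dendritic cells, and the monocyte receptor Ccr2. The median log2 fold change of the members was 0.21, against -0.01 over all genes.

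Cxcl12 had 127, 122 and 119 CPM in libraries labelled Il1f5 KO, against 71.6, 74.7 and 83.5 CPM in Il1f5 WT colitis (log2 fold change 0.68 ± 0.09, adjusted p = 0.00150). Cxcl14 (ENSMUSG00000021508, chromosome 13, 56288643 to 56296551), which is made by epithelial and stromal cells, had 38.3, 27.6 and 24.3 CPM in libraries labelled KO, against 18.1, 18.01 and 16.5 CPM in WT (log2 fold change 0.78 ± 0.17, adjusted p = 0.00822). Cxcl13 had 19.6, 26.8 and 18.6 CPM in libraries labelled KO, against 6.93, 6.99 and 11.1 CPM in WT (log2 fold change 1.37 ± 0.26, adjusted p = 0.00716). Every library labelled KO lay above every WT library for these 3 ligands. Beside them, 4 of 5 fibroblast markers rose and summed to 1163 to 1207 CPM in libraries labelled KO, against 662 to 696 CPM in WT, and all 5 endothelial markers rose, at 213 to 278 CPM in libraries labelled KO, against 121 to 133 CPM in WT. Smooth muscle markers rose in 3 of 5 cases, and the part of these cell types in the ligand levels was not tested. Ccl22 had 2.02, 1.22 and 2.77 CPM in libraries labelled KO, against 4.15, 4.76 and 3.27 CPM in WT, with no overlap (log2 fold change -1.02 ± 0.30, adjusted p = 0.0299). Beside it 1 of 4 dendritic cell markers fell, a part not tested. Ccr2 had 13.9, 13.9 and 17.6 CPM in libraries labelled KO, against 21.4, 22.6 and 26.2 CPM in WT, again with no overlap (log2 fold change -0.63 ± 0.19, adjusted p = 0.0309). Ccl9 had 37.9, 48.6 and 46.02 CPM in libraries labelled KO, against 30.97, 35.1 and 35.6 CPM in WT, the smallest of the called changes (log2 fold change 0.38 ± 0.12, adjusted p = 0.0407). It lies on chromosome 11 with Slfn8 and Nlrp1b, which were lower in the libraries labelled KO, and their part was not tested. Leaving out single libraries ended the call of Ccl22 (adjusted p = 0.0860 omitting WT 1, 0.107 omitting WT 2, 0.0790 omitting KO 1 and 0.0959 omitting KO 2), Ccr2 (0.0606 omitting WT 1, 0.0766 omitting WT 2, 0.0913 omitting WT 3, 0.107 omitting KO 1 and 0.101 omitting KO 2) and Ccl9 (0.145 omitting WT 1, 0.0935 omitting WT 2, 0.0643 omitting WT 3, 0.136 omitting KO 2 and 0.0622 omitting KO 3).

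Among the neutrophil ligands, Cxcl3 had 5.997, 9.95 and 28.3 CPM in libraries labelled Il1f5 KO, against 1.57, 3.55 and 4.52 CPM in Il1f5 WT colitis (log2 fold change 2.18 ± 0.65, adjusted p = 0.0477). Cxcl2 had 35.02, 77.6 and 172 CPM in libraries labelled KO, against 15.2, 25.8 and 47.1 CPM in WT. Cxcl1 had 21.7, 70.6 and 16.2 CPM in libraries labelled KO, against 5.20, 9.27 and 22.4 CPM in WT. Both overlapped between the groups and were not called, at log2 fold changes of 1.68 ± 0.70 and 1.54 ± 0.73 (adjusted p = 0.129 and 0.168). Cxcl5 had 38.2, 89.5 and 44.7 CPM in libraries labelled KO, against 55.4, 43.1 and 55.6 CPM in WT. Cxcr2 had 8.76, 15.6 and 13.2 CPM in libraries labelled KO, against 5.88, 7.23 and 9.004 CPM in WT. Neither was called, and 1 of 7 neutrophil markers was, with a summed level of 181 to 587 CPM in libraries labelled KO, against 81.97 to 199 CPM in WT. Ccl2, with 17.2, 67.6 and 19.8 CPM in libraries labelled KO, against 10.1, 15.4 and 35.7 CPM in WT, and Ccl7, with 11.8, 43.3 and 22.2 CPM in libraries labelled KO, against 14.4, 14.997 and 32.2 CPM in WT, overlapped between the groups and were not called. The eosinophil ligand Ccl11 had 26.9, 39.4 and 25.2 CPM in libraries labelled KO, against 15.9, 18.01 and 30.8 CPM in WT, with overlap. Ccl20 had 1.70, 0.732 and 0.940 CPM in libraries labelled KO, against 2.10, 2.17 and 2.22 CPM in WT, so that no library labelled KO reached a WT value, but its log2 fold change of -0.94 ± 0.57 did not pass (adjusted p = 0.249). Ccl28 had 56.1, 58.2 and 52.4 CPM in libraries labelled KO, against 89.1, 66.7 and 57.1 CPM in WT. Cxcl16 had 24.8, 24.2 and 29.5 CPM in libraries labelled KO, against 24.9, 26.3 and 29.3 CPM in WT. Both Ccl28 and Cxcl16 overlapped between the groups and were not called. The Cxcl3 call was lost without the filter on low counts (adjusted p = 0.112) and in a fit of only the 2 groups compared (0.0832). The call did not survive every single omission for Cxcl3 (adjusted p = 0.129 omitting WT 1, 0.123 omitting WT 2, 0.0760 omitting WT 3, 0.0744 omitting KO 2 and 0.0508 omitting KO 3). Depending on the library left out, the log2 fold change lay for Cxcl3 between 1.32 omitting KO 3 and 2.56 omitting KO 1.

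**Figure D3:**
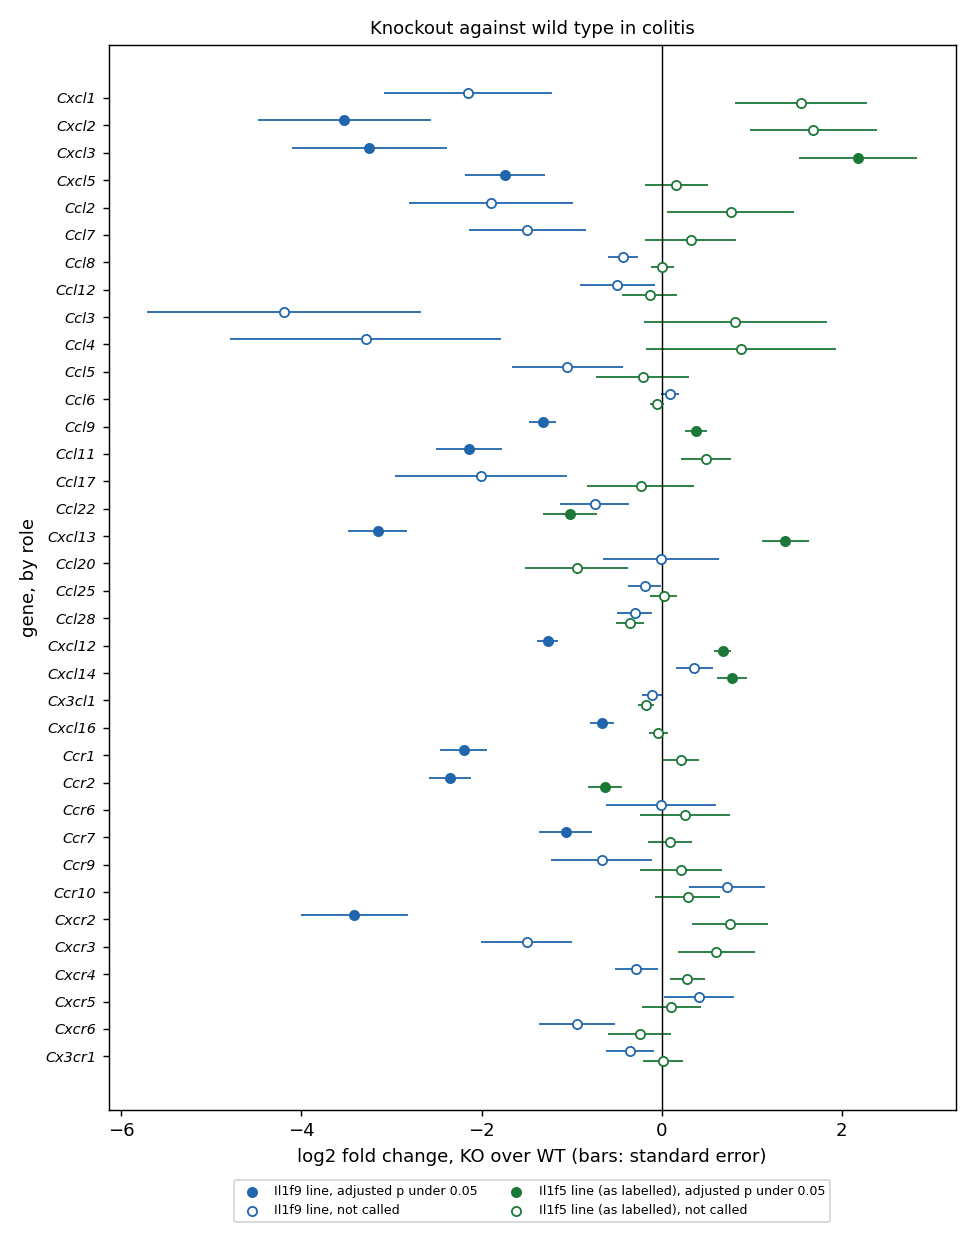
Log2 fold change of KO over WT in colitis for the 36 tested members, ordered by role, with standard errors as bars, in the Il1f9 line and in the Il1f5 line as labelled, and filled points at an adjusted p under 0.05. In the Il1f9 line 12 filled points lie left of 0 and none lie right of it, and in the Il1f5 line 5 lie right and 2 left.

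The effects of the 2 lines in colitis were compared directly, as the change in libraries labelled Il1f5 KO minus the change in Il1f9 KO libraries. The difference was above 0 for 13 of 36 members and below 0 for none, where 12.8% of all genes were called above and 12.0% below. It was 5.43 ± 1.08 for Cxcl3, 5.21 ± 1.19 for Cxcl2, 4.17 ± 0.72 for Cxcr2, 4.52 ± 0.42 for Cxcl13 and 2.64 ± 0.46 for Ccl11 on the log2 scale. Cxcl12 differed by 1.94 ± 0.15, adjusted p = 0.000291, being higher in libraries labelled Il1f5 KO and lower in Il1f9 KO libraries than in the WT libraries of the line. Ccr2 was lower in both, and its difference was 1.72 ± 0.29, adjusted p = 0.00320. All 7 neutrophil, 8 of 9 monocyte and macrophage, all 5 endothelial and 4 of 5 fibroblast markers also differed above 0, and 4 of 7 colon epithelium markers differed below 0. The part of these cell types was not tested. Without the filter on low counts the Cxcl5 difference did not pass (adjusted p = 0.110). With 1 library left out, the adjusted p rose above 0.05 for Cxcl3 (adjusted p = 0.0514 omitting Il1f9 KO 1 and 0.0740 omitting Il1f9 KO 2) and Cxcl2 (0.0562 omitting Il1f5 WT 2, 0.0561 omitting Il1f9 WT 1, 0.0501 omitting Il1f9 WT 2, 0.0828 omitting Il1f9 KO 1 and 0.106 omitting Il1f9 KO 2). Omission of 1 library placed the difference of Cxcl3 between 4.58 omitting Il1f5 KO 3 and 5.86 omitting Il1f9 WT 2, Cxcl2 between 4.39 omitting Il1f9 WT 1 and 5.74 omitting Il1f9 WT 2 and Cxcr2 between 3.38 omitting Il1f9 KO 2 and 5.89 omitting Il1f9 KO 1.

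The WT colitis groups of the 2 lines are the baselines of these comparisons and differed in 6 members, 5 higher and 1 lower in the Il1f9 line (8 and 1 by DESeq2), where 3.25% of all genes were higher and 1.68% lower. Cxcl13, at 52.2 and 92.3 CPM in Il1f9 WT colitis, against 6.93, 6.99 and 11.1 CPM in Il1f5 WT colitis, was apart by 3.11 ± 0.28, adjusted p = 0.00231. The receptors Ccr1 and Ccr2 were higher by 1.18 ± 0.22 and 1.14 ± 0.20, Ccl9 by 1.01 ± 0.13 and Cxcl12 by 0.89 ± 0.10, while Ccl6, with 163 and 186 CPM in Il1f9 WT, against 239, 231 and 253 CPM in Il1f5 WT, had -0.47 ± 0.09. No library of one WT group overlapped the other for these 6 genes. Monocyte and macrophage markers were higher in 6 of 9 cases in the Il1f9 line and summed to 910.1 to 1121 CPM there, against 416 to 491 CPM in Il1f5 WT, beside the receptors Ccr1 and Ccr2. Beside the stromal ligands Cxcl12 and Cxcl13, 4 of 5 endothelial and 3 of 5 fibroblast markers were higher in the Il1f9 line. Of 7 neutrophil markers only 1 was called higher. Yet this list summed to 662 to 1218 CPM in Il1f9 WT, against 81.97 to 199 CPM in Il1f5 WT, with no overlap. The 4 neutrophil ligands were not called, at log2 fold changes of 1.36 to 2.39. The part of these cell types was not tested. When libraries were left out singly, the call was lost for Ccr1 (adjusted p = 0.0812 omitting Il1f5 WT 1, 0.0758 omitting Il1f5 WT 2 and 0.134 omitting Il1f9 WT 2), Ccr2 (0.0681 omitting Il1f5 WT 1, 0.0677 omitting Il1f5 WT 2 and 0.125 omitting Il1f9 WT 2) and Ccl6 (0.0812 omitting Il1f5 WT 1, 0.0677 omitting Il1f5 WT 2 and 0.0596 omitting Il1f9 WT 1).

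In tumours, KO was compared with WT in each line, and no member was called. In the Il1f9 line 0 of 36 members rose and 0 fell, where 0.0056% of all genes rose and 0.0112% fell, and by unadjusted p under 0.05 the counts were 3 higher and 8 lower and by DESeq2 1 higher and 5 lower. In tumours labelled Il1f5 KO the counts were 0 and 0, where 0.0112% of all genes rose and 0.0168% fell, with 0 higher and 4 lower by unadjusted p and 0 higher and 1 lower by DESeq2. Without the filter on low counts, edgeR called 4 members higher and 9 lower in the Il1f9 line and 1 higher and 4 lower in tumours labelled Il1f5 KO. No share of all genes was counted under these alternatives, so a general rise in calls cannot be told from one of the members. With so few genes called at all, these comparisons of 2 against 2 libraries do not show that the members did not differ. Cxcl5 had 739 and 1036 CPM in Il1f9 KO tumours, against 2014 and 1634 CPM in Il1f9 WT tumours (log2 fold change -1.06 ± 0.25, adjusted p = 0.365). Cxcr2 had 38.8 and 25.96 CPM in Il1f9 KO tumours, against 84.6 and 45.9 CPM in Il1f9 WT tumours. Ccr1 had 54.9 and 60.2 CPM in KO, against 112 and 75.5 CPM in WT. For these 3 genes each KO tumour lay below each WT tumour without a call, at -1.03 ± 0.32, adjusted p = 0.458 for Cxcr2 and -0.72 ± 0.21, adjusted p = 0.425 for Ccr1. The 2 KO tumours differed from each other in stromal genes. Cxcl12 had 10.8 and 31.1 CPM in KO, against 6.81 and 5.16 CPM in the WT tumours. Cxcl13 had 3.37 and 10.01 CPM in Il1f9 KO tumours, against 2.15 and 2.64 CPM in the WT tumours. The smooth muscle markers of these KO tumours summed to 60.5 to 643 CPM, against 80.5 to 132 CPM in the WT tumours. Ccl2 also spread within groups, with 6.69 and 41.97 CPM in Il1f9 KO tumours, against 32.02 and 7.74 CPM in Il1f9 WT tumours. In the Il1f5 line, Cxcl12 had 11.3 and 8.87 CPM in tumours labelled Il1f5 KO, against 17.7 and 19.04 CPM in Il1f5 WT tumours. Cxcl13 had 1.81 and 2.57 CPM in tumours labelled KO, against 6.01 and 3.91 CPM in WT tumours. Ccl25 had 8.32 and 7.67 CPM in tumours labelled KO, against 13.2 and 13.4 CPM in WT tumours (log2 fold change -0.75 ± 0.34, adjusted p = 0.226). The labelled KO tumours lay below the WT tumours for these 3 ligands, and none passed. With 2 against 2 libraries, such a separation alone does not show a difference.

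The tumours differed between the lines. Among WT tumours, 12 of 36 members were higher and 4 lower in the Il1f9 line than in the Il1f5 line, where 16.8% of all genes were higher and 11.7% lower. The share that was lower was near that of all genes. All 4 neutrophil ligands and Cxcr2 were higher, as were Ccl3, Ccl4, Ccl7, Ccl20, Cxcl16, Ccr1 and Cxcr4, while Ccl25, Ccl28, Ccr10 and Cxcl12 were lower. The median log2 fold change of the members was 0.76, against 0.02 over all genes. Cxcl2 had 1709 and 564 CPM in Il1f9 WT tumours, against 58.3 and 50.8 CPM in Il1f5 WT tumours (log2 fold change 4.41 ± 0.54, adjusted p = 0.00306). Cxcl1 had 399 and 127 CPM in Il1f9 WT, against 27.5 and 21.2 CPM in Il1f5 WT. Cxcl3 had 329 and 132 CPM in Il1f9 WT, against 11.2 and 15.3 CPM in Il1f5 WT. Their log2 fold changes were 3.46 ± 0.58 and 4.14 ± 0.61, and Cxcl5, with 2014 and 1634 CPM in Il1f9 WT, against 193 and 310.02 CPM in Il1f5 WT, had 2.88 ± 0.27, adjusted p = 0.000718. Cxcr2 had 84.6 and 45.9 CPM in Il1f9 WT, against 10.1 and 7.67 CPM in Il1f5 WT (log2 fold change 2.90 ± 0.35, adjusted p = 0.00155). The promoters of Cxcl1, Cxcl2 and Cxcl3 are those printed above with the shared 11-base run. No library of one line overlapped the other for these 5 genes, and for Cxcl1, Cxcl2 and Cxcl3 Il1f9 WT 1 held the higher value of the 2 Il1f9 WT tumours. All 7 neutrophil markers were higher and summed to 1759 to 4168 CPM in Il1f9 WT tumours, against 187 to 198 CPM in Il1f5 WT tumours, and their part was not tested. Leaving out single libraries ended the call of Cxcl1 (adjusted p = 0.0705 omitting Il1f5 WT 1 and 0.0729 omitting Il1f5 WT 2) and Cxcl3 (0.0649 omitting Il1f5 WT 1). Across single omissions, the log2 fold change ran for Cxcl2 between 3.40 omitting Il1f9 WT 1 and 5.02 omitting Il1f9 WT 2, Cxcl1 between 2.41 omitting Il1f9 WT 1 and 4.09 omitting Il1f9 WT 2 and Cxcl3 between 3.34 omitting Il1f9 WT 1 and 4.68 omitting Il1f9 WT 2.

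Ccl3 and Ccl4, neighbouring genes of the macrophage inflammatory proteins on chromosome 11, were both higher in the WT tumours of the Il1f9 line. Also on this chromosome, Slfn8 was higher by 3.63 ± 0.67 (adjusted p = 0.00553) and Nlrp1b by 1.93 ± 0.62 (adjusted p = 0.0453) on the log2 scale. Slfn8 had 5.46 and 3.61 CPM in Il1f9 WT tumours, against 0.529 and 0.200 CPM in Il1f5 WT tumours. In Il1f5 WT colitis it had 11.6 to 15.2 CPM, and 0.244 to 0.996 CPM in colitis labelled Il1f5 KO. The part of this difference in the ligand levels was not tested. Ccl3 (ENSMUSG00000000982, chromosome 11, 83647844 to 83649355) had 108 and 24.4 CPM in Il1f9 WT tumours, against 4.81 and 4.11 CPM in Il1f5 WT tumours (log2 fold change 3.91 ± 0.78, adjusted p = 0.0167). Ccl4 (ENSMUSG00000018930, chromosome 11, 83662584 to 83664683) had 82.3 and 16.9 CPM in Il1f9 WT, against 2.31 and 2.71 CPM in Il1f5 WT (log2 fold change 4.33 ± 0.79, adjusted p = 0.0119), with Il1f9 WT 1 highest for both genes. Ccl7 had 24.6 and 16.3 CPM in Il1f9 WT, against 6.64 and 4.26 CPM in Il1f5 WT, and was called at 1.93 ± 0.50, whereas Ccl2, with 32.02 and 7.74 CPM in Il1f9 WT, against 6.35 and 5.66 CPM in Il1f5 WT, was not (1.75 ± 1.01, adjusted p = 0.244). Ccl20 (ENSMUSG00000026166, chromosome 1, 83116766 to 83119167) had 61.96 and 20.7 CPM in Il1f9 WT, against 2.84 and 5.11 CPM in Il1f5 WT (log2 fold change 3.40 ± 0.60, adjusted p = 0.00834). Ccl25 (ENSMUSG00000023235, chromosome 8, 4325210 to 4360020) ran the other way, with 2.82 and 3.61 CPM in Il1f9 WT, against 13.2 and 13.4 CPM in Il1f5 WT (log2 fold change -2.03 ± 0.36, adjusted p = 0.00476). Ccl28 (ENSMUSG00000074715, chromosome 13, 119623819 to 119654359) had 8.65 and 14.3 CPM in Il1f9 WT, against 35.4 and 38.8 CPM in Il1f5 WT (log2 fold change -1.67 ± 0.37, adjusted p = 0.0135). Ccr10, its receptor, had 0.552 and 0.459 CPM in Il1f9 WT, against 2.60 and 1.60 CPM in Il1f5 WT (-2.02 ± 0.53, adjusted p = 0.0209). Thus 1 epithelial ligand was higher and the other 2 tested were lower, each without overlap. Cxcl16 had 156 and 109 CPM in Il1f9 WT, against 52.4 and 41.9 CPM in Il1f5 WT. Cxcr4, the Cxcl12 receptor, had 26.6 and 31.5 CPM in Il1f9 WT, against 12.6 and 10.2 CPM in Il1f5 WT. The log2 fold changes were 1.51 ± 0.28 for Cxcl16 and 1.37 ± 0.26 for Cxcr4. Cxcl12 itself had 6.81 and 5.16 CPM in Il1f9 WT, against 17.7 and 19.04 CPM in Il1f5 WT (log2 fold change -1.60 ± 0.43, adjusted p = 0.0271). Ccr1 had 112 and 75.5 CPM in Il1f9 WT, against 18.6 and 17.3 CPM in Il1f5 WT (log2 fold change 2.40 ± 0.22, adjusted p = 0.000710). Ccl24 was not called, with 23.9 and 21.96 CPM in Il1f9 WT, against 11.3 and 9.92 CPM in Il1f5 WT. In a fit of only the 2 groups compared, Ccl3 and Ccl4 were not called (adjusted p = 0.0601 for Ccl3 and 0.0590 for Ccl4). Beside these ligands 3 of 9 monocyte and macrophage markers were higher, 1 of 5 endothelial markers was lower, and 3 of 7 colon epithelium markers were higher and 1 lower, a part not tested. The call did not survive every single omission for Ccl3 (adjusted p = 0.121 omitting Il1f5 WT 1 and 0.117 omitting Il1f5 WT 2), Ccl4 (0.103 omitting Il1f5 WT 1 and 0.0857 omitting Il1f5 WT 2), Ccl7 (0.0777 omitting Il1f5 WT 1, 0.137 omitting Il1f5 WT 2 and 0.127 omitting Il1f9 WT 1), Ccl20 (0.0670 omitting Il1f5 WT 1), Ccl28 (0.0559 omitting Il1f5 WT 1, 0.0628 omitting Il1f5 WT 2 and 0.0991 omitting Il1f9 WT 1), Ccr10 (0.142 omitting Il1f5 WT 1, 0.0959 omitting Il1f9 WT 1 and 0.111 omitting Il1f9 WT 2), Cxcr4 (0.0515 omitting Il1f5 WT 2) and Cxcl12 (0.0891 omitting Il1f5 WT 1, 0.0990 omitting Il1f5 WT 2, 0.0996 omitting Il1f9 WT 1 and 0.148 omitting Il1f9 WT 2). Single libraries moved the log2 fold change of Ccl3 between 2.48 omitting Il1f9 WT 1 and 4.64 omitting Il1f9 WT 2, Ccl4 between 2.77 omitting Il1f9 WT 1 and 5.08 omitting Il1f9 WT 2 and Ccl20 between 2.40 omitting Il1f9 WT 1 and 4.01 omitting Il1f9 WT 2.

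The same line difference was then looked for in the KO tumours, which are other libraries, a comparison added after seeing the data. Of 36 members, 9 were higher and 0 lower in Il1f9 KO tumours than in tumours labelled Il1f5 KO, where 12.2% of all genes were higher and 9.83% lower. DESeq2 called 15 higher and 1 lower, and edgeR without the filter 19 higher and 1 lower. The 9 were Cxcl1, Cxcl2, Cxcl3, Cxcl5, Cxcr2, Ccr1, Cxcr4, Cxcl16 and the macrophage ligand Ccl6. Slfn8 and Nlrp1b, on chromosome 11 with Cxcl16 and Ccl6, were higher too, by 2.88 ± 0.64 and 2.19 ± 0.66 (adjusted p = 0.0146 and 0.0431). Their part was not tested. Cxcl2 had 464 and 406 CPM in Il1f9 KO tumours, against 49.2 and 59.1 CPM in tumours labelled Il1f5 KO (log2 fold change 3.02 ± 0.51, adjusted p = 0.0102). Cxcl1 had 117 and 136 CPM in Il1f9 KO, against 16.98 and 24.7 CPM in labelled Il1f5 KO. Cxcl3 had 52.2 and 119 CPM in Il1f9 KO, against 16.98 and 18.6 CPM in labelled Il1f5 KO. Cxcl5 had 739 and 1036 CPM in Il1f9 KO, against 199.9 and 221 CPM in labelled Il1f5 KO. Ccr1 had 54.9 and 60.2 CPM in Il1f9 KO, against 11.4 and 14.02 CPM in labelled Il1f5 KO. No library of one group overlapped the other for these genes, with log2 fold changes of 2.61 ± 0.56 for Cxcl1, 2.27 ± 0.57 for Cxcl3, 2.08 ± 0.26 for Cxcl5 and 2.19 ± 0.22 for Ccr1. Cxcr2 had 38.8 and 25.96 CPM in Il1f9 KO, against 9.13 and 7.30 CPM in labelled Il1f5 KO (1.99 ± 0.34, adjusted p = 0.00669). Cxcr4 was higher, with 34.9 and 22.6 CPM in Il1f9 KO, against 8.66 and 6.77 CPM in labelled Il1f5 KO (1.91 ± 0.27, adjusted p = 0.00340). Ccl6 had 204 and 162 CPM in Il1f9 KO, against 79.4 and 125 CPM in labelled Il1f5 KO (0.85 ± 0.24, adjusted p = 0.0332). Cxcl16 had 112 and 189 CPM in Il1f9 KO, against 79.3 and 63.1 CPM in labelled Il1f5 KO (1.09 ± 0.27, adjusted p = 0.0247). Ccl20 had 16.3 and 11.03 CPM in Il1f9 KO, against 3.71 and 5.57 CPM in labelled Il1f5 KO, with no overlap and no call (1.57 ± 0.58, adjusted p = 0.0942). Ccl28 had 14.7 and 10.3 CPM in Il1f9 KO, against 12.9 and 25.7 CPM in labelled Il1f5 KO. Of 7 neutrophil markers 3 were higher, and their sum was 903 to 1665 CPM in Il1f9 KO tumours, against 336 to 384 CPM in tumours labelled Il1f5 KO. Of the other lists, 4 of 9 monocyte and macrophage, 1 of 3 eosinophil, 1 of 5 fibroblast and 2 of 7 colon epithelium markers were higher, and 3 of 3 mast cell and 1 of 7 colon epithelium markers were lower. The part of these cell types was not tested, and fitting only the 2 groups compared ended the call of Ccl6 (adjusted p = 0.0835). The TMM factors were 0.860 to 0.892 in the Il1f9-line tumours and 0.977 to 1.16 in the Il1f5-line tumours. With 1 library left out, the adjusted p rose above 0.05 for Cxcl2 (adjusted p = 0.0893 omitting Il1f5 KO 1 and 0.0613 omitting Il1f5 KO 2), Cxcl1 (0.147 omitting Il1f5 KO 1, 0.0881 omitting Il1f5 KO 2, 0.0728 omitting Il1f9 KO 1 and 0.0988 omitting Il1f9 KO 2), Cxcl3 (0.188 omitting Il1f5 KO 1, 0.149 omitting Il1f5 KO 2 and 0.127 omitting Il1f9 KO 2), Cxcr2 (0.0556 omitting Il1f5 KO 1 and 0.0529 omitting Il1f5 KO 2), Cxcl16 (0.1001 omitting Il1f5 KO 1, 0.137 omitting Il1f5 KO 2 and 0.0828 omitting Il1f9 KO 2) and Ccl6 (0.179 omitting Il1f5 KO 1 and 0.112 omitting Il1f9 KO 1). Depending on the library left out, the log2 fold change lay for Cxcl3 between 1.59 omitting Il1f9 KO 2 and 2.73 omitting Il1f9 KO 1.

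Tumours were compared with colitis colon over all 4 genotype groups, each weighted equally. Of 37 tested members 15 were higher and 15 lower in tumours, where 36.5% of all genes were higher and 36.1% lower, so both shares were near those of all genes. Ccl24 passed the filter on low counts through the tumours alone and Ccr6 through the colitis libraries alone, which fixes the direction of their calls, and over the 35 members that passed within each tissue 14 were higher and 14 lower. Higher were all 4 neutrophil ligands, both Ccr4 ligands, Ccl24, Ccl20, Cxcl14, Cxcl16, Ccl3, Cxcr2, Ccr1, Cxcr4 and Cxcr6. Lower were Cxcl12, Cxcl13, Ccl11, Ccl28, Ccl5, Ccl6, Ccl7, Ccl8, Ccl25, Cx3cl1, Ccr2, Ccr6, Ccr10, Cxcr3 and Cxcr5. Ccl24 (ENSMUSG00000004814, chromosome 5, 135569937 to 135573049) had a lowest, median and highest value of 2.71, 10.6 and 34.5 CPM in tumours, against 0.149, 0.294 and 0.554 CPM in colitis, a difference given without a test. Ccl11, the other eosinophil ligand, had 1.43, 2.91 and 4.76 CPM in tumours, against 6.56, 26.01 and 39.4 CPM in colitis (log2 fold change -2.82 ± 0.18, adjusted p = 1.40e-09). Neither gene overlapped between the tissues. Ccl17 (ENSMUSG00000031780, chromosome 8, 94810453 to 94812036), which draws Ccr4-bearing T cells, had 2.50, 3.64 and 9.47 CPM in tumours, against 0, 0.448 and 0.735 CPM in colitis (3.64 ± 0.33, adjusted p = 6.73e-08), with no overlap. Cxcl12 had 5.16, 11.1 and 31.1 CPM in tumours, against 57.1, 101 and 156 CPM in colitis, and every tumour was below every colitis library (-2.93 ± 0.17, adjusted p = 2.06e-09). Cxcl14, listed beside it as a stromal ligand, had 66.9, 93.3 and 132 CPM in tumours, against 16.5, 18.6 and 38.3 CPM in colitis (2.14 ± 0.11, adjusted p = 1.32e-10). Cxcl13 had 1.81, 3.01 and 10.01 CPM in tumours, against 6.93, 14.8 and 92.3 CPM in colitis (-2.31 ± 0.22, adjusted p = 3.07e-07), with overlap. Its receptor Cxcr5 had 0.422, 0.858 and 1.35 CPM in tumours, against 1.76, 2.69 and 4.91 CPM in colitis (-1.80 ± 0.25, adjusted p = 6.85e-06). Ccl28 had 8.65, 14.5 and 38.8 CPM in tumours, against 52.4, 65.9 and 99.7 CPM in colitis (-2.01 ± 0.15, adjusted p = 3.40e-08). Cxcl5 had 193, 525 and 2014 CPM in tumours, against 29.6, 54.5 and 142 CPM in colitis (3.08 ± 0.19, adjusted p = 1.02e-08). Cxcl16 had 41.9, 94.2 and 189 CPM in tumours, against 21.1, 25.6 and 36.1 CPM in colitis (1.76 ± 0.11, adjusted p = 7.89e-10). Neither Cxcl5 nor Cxcl16 overlapped between the tissues. Cxcl3 was higher by 2.91 ± 0.38, adjusted p = 2.78e-05, with overlap between the tissues. Cx3cl1 had 39.4, 59.2 and 65.9 CPM in tumours, against 76.8, 86.7 and 98.4 CPM in colitis (-0.57 ± 0.08, adjusted p = 1.15e-05).

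Markers of other cell types moved with the tissue. All 5 smooth muscle, all 6 B cell, 4 of 5 fibroblast and 4 of 5 endothelial markers were lower in tumours, and all 6 squamous epithelium markers, all 3 mast cell markers and 5 of 7 neutrophil markers were higher. Within colitis 4 of the squamous and 2 of the mast cell markers passed the filter, so the others were tested through the tumours. Beside Ccl11 and Ccl24, 2 of 3 tested eosinophil markers were lower and none was higher. Of 9 monocyte and macrophage markers 5 were higher and 1 lower, of 7 colon epithelium markers 3 were higher and 4 lower, of 4 dendritic cell markers 1 was higher and 2 lower, and 1 of 7 T and NK cell markers was lower. Squamous markers summed to 356 to 431 CPM in Il1f9 KO, 351 to 442 in Il1f9 WT, 84.01 to 266 in labelled Il1f5 KO and 114 to 805 in Il1f5 WT tumours, against 5.15 to 5.86 CPM in Il1f9 KO, 2.22 to 5.19 in Il1f9 WT, 1.83 to 2.15 in labelled Il1f5 KO and 1.84 to 3.48 in Il1f5 WT colitis. B cell markers summed to 3.25 to 19.04 CPM in tumours, against 23.3 to 72.9 CPM in colitis, beside the lower Cxcl13 and Cxcr5. The part of these cell types in the tissue difference was not tested. When libraries were left out singly, the call was lost for Ccl3 (adjusted p = 0.0625 omitting colitis Il1f9 KO 2, 0.0516 omitting tumour Il1f5 KO 1 and 0.0569 omitting tumour Il1f9 WT 1), Ccl7 (0.0690 omitting colitis Il1f5 WT 3, 0.0617 omitting colitis Il1f5 KO 2, 0.0549 omitting colitis Il1f5 KO 3, 0.0565 omitting colitis Il1f9 WT 1, 0.0945 omitting colitis Il1f9 WT 2, 0.0881 omitting colitis Il1f9 KO 1, 0.0614 omitting colitis Il1f9 KO 2, 0.0545 omitting tumour Il1f5 WT 1, 0.106 omitting tumour Il1f5 WT 2, 0.102 omitting tumour Il1f5 KO 1, 0.0962 omitting tumour Il1f9 WT 2 and 0.0996 omitting tumour Il1f9 KO 1) and Cxcr6 (0.0679 omitting tumour Il1f9 KO 2). Omission of 1 library placed the log2 fold change of Ccl17 between 3.38 omitting tumour Il1f9 KO 2 and 4.66 omitting colitis Il1f9 KO 2.

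**Figure D4:**
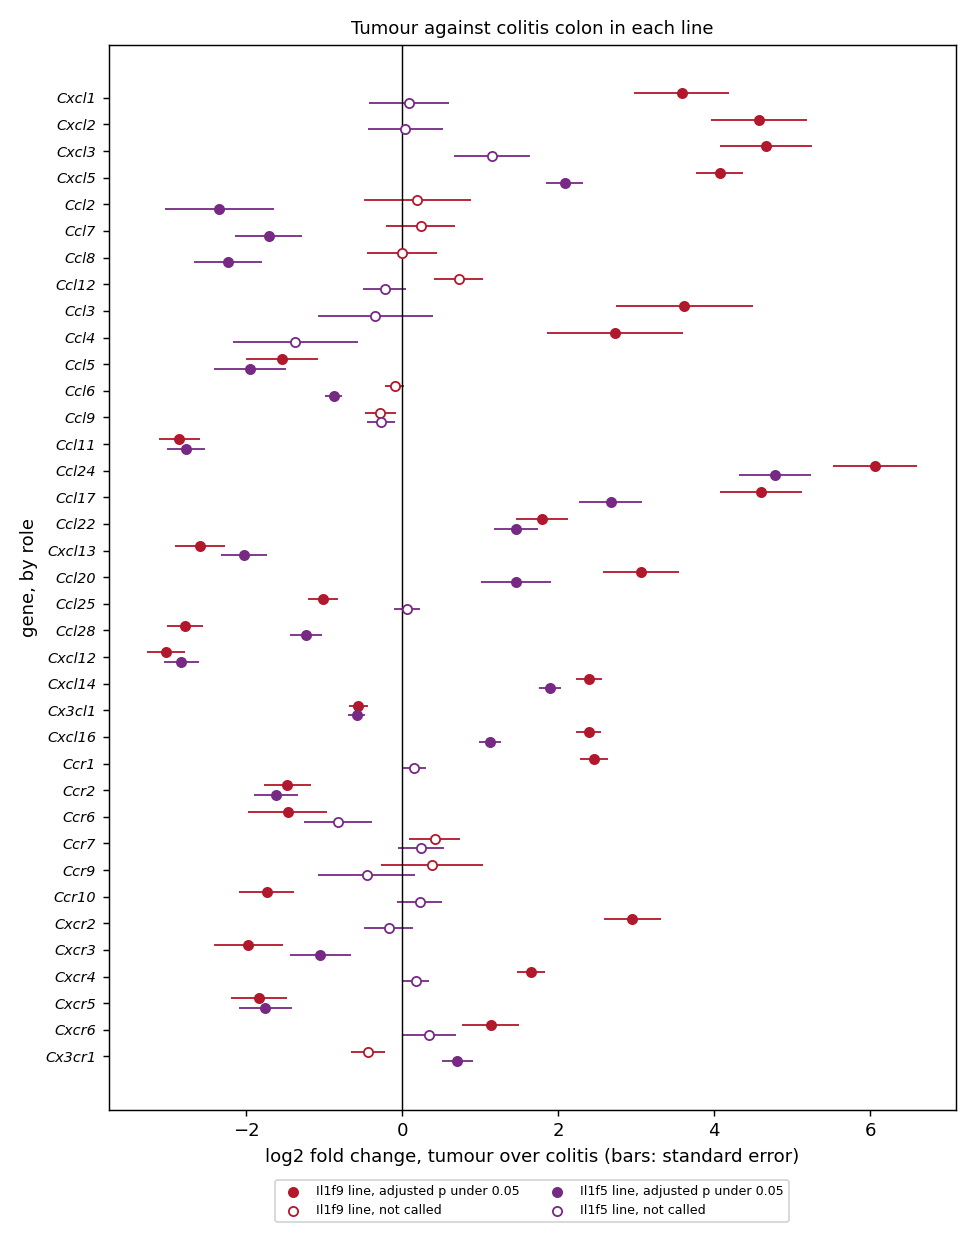
Log2 fold change of tumour over colitis for the 37 tested members, ordered by role, with standard errors as bars, in the Il1f9 line and in the Il1f5 line, and filled points at an adjusted p under 0.05. Ccl17, Cxcl14, Cxcl12, Cxcl13 and Ccl11 are filled on the same side of 0 in both lines, and Cxcl1, Cxcl2, Cxcl3, Ccr1 and Cxcr2 are filled in the Il1f9 line alone.

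The tissue difference was set side by side in the 2 lines. In the Il1f9 line alone 16 members were higher and 12 lower in tumours, where 33.2% of all genes were higher and 33.4% lower. In the Il1f5 line alone 8 were higher and 13 lower, where 30.8% were higher and 29.7% lower. These counts hold Ccl24 among those higher in both lines and Ccr6 among those lower in the Il1f9 line. The filter on low counts fixed the direction of these calls, as given above. The contrast of the 2 tissue differences, added after seeing the data, was above 0 in the Il1f9 line for 14 members and below 0 for 4, where 16.8% of all genes were called above and 16.0% below. Slfn8 and Nlrp1b on chromosome 11 were above 0 too, by 3.90 ± 0.56 and 2.88 ± 0.46 (adjusted p = 0.000137 and 0.000309). The called members Ccl3, Ccl4, Ccl6, Ccl7, Ccl8, Cxcl16 and Ccr10 also lie on this chromosome, and its part was not tested. Cxcl2 was higher in tumours by 4.58 ± 0.61 in the Il1f9 line and had 0.04 ± 0.48 in the Il1f5 line, a difference of 4.53 ± 0.77, adjusted p = 0.00125. Cxcl1 had 3.59 ± 0.61 in the Il1f9 line and 0.08 ± 0.51 in the Il1f5 line. Cxcr2 had 2.95 ± 0.37 in the Il1f9 line and -0.17 ± 0.32 in the Il1f5 line. Ccr1 had 2.46 ± 0.18 in the Il1f9 line and 0.15 ± 0.16 in the Il1f5 line. The differences between lines were 3.50 ± 0.79, adjusted p = 0.00633 for Cxcl1, 3.12 ± 0.49, adjusted p = 0.000474 for Cxcr2 and 2.31 ± 0.24, adjusted p = 1.23e-05 for Ccr1. Cxcl12 had -3.03 ± 0.24 in the Il1f9 line and -2.83 ± 0.23 in the Il1f5 line, and the difference was not called (-0.20 ± 0.31, adjusted p = 0.668). Of 7 neutrophil markers 5 differed between the lines in the direction of Cxcl2, as did 5 of 9 monocyte and macrophage, 2 of 3 tested eosinophil, 4 of 7 colon epithelium, 2 of 5 fibroblast, 1 of 4 dendritic cell and 1 of 5 endothelial markers. In the opposite direction were 4 of 6 B cell markers and 1 marker each of fibroblasts, endothelium and colon epithelium, and the part of these cell types was not tested. Across single omissions, the difference ran for Cxcr2 between 2.72 omitting colitis Il1f9 KO 2 and 3.99 omitting colitis Il1f9 KO 1.

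**Figure D5:**
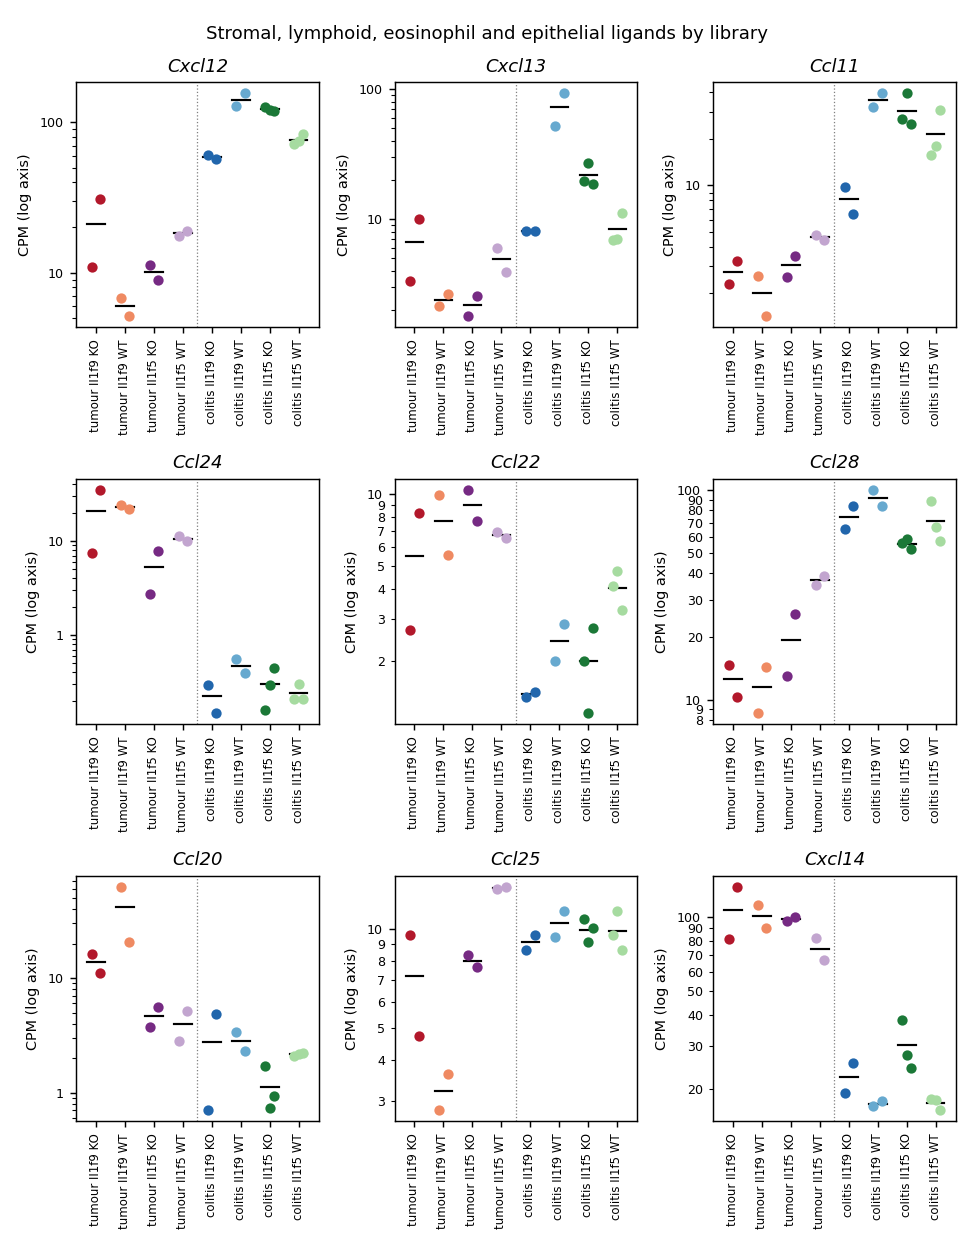
CPM on a log axis of Cxcl12, Cxcl13, Ccl11, Ccl24, Ccl22, Ccl28, Ccl20, Ccl25 and Cxcl14 in every library of the 8 groups (points) with the group mean (bars), tumours left of the dotted line. Cxcl12, Ccl11 and Ccl28 are lower in every tumour than in every colitis library, Ccl24 and Cxcl14 are higher, and Cxcl13 is highest in the 2 Il1f9 WT colitis libraries.

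Whether the genotype effects differed between tumours and colitis was tested as a contrast of contrasts. Slfn8 and Nlrp1b on chromosome 11 differed too, by 4.31 and 4.90 for the Il1f9 KO (adjusted p = 0.0130 and 0.00423). For libraries labelled Il1f5 KO they differed by 4.72 and 2.63 (adjusted p = 0.00360 and 0.0152). Neither gene was called between KO and WT tumours of either line. The member Ccl11 also lies on chromosome 11, and the part of this difference was not tested. For the Il1f9 KO, 4 of 37 members had a difference above 0, tumours minus colitis, and 0 below, where 1.65% of all genes were called above and 0.82% below. DESeq2 called 7 above 0, and edgeR without the filter 18 above and 1 below. The 4 members were Cxcl13 (4.63 ± 0.63, adjusted p = 0.00591), Cxcl12 (3.07 ± 0.47, adjusted p = 0.0102), Ccl11 (2.61 ± 0.53, adjusted p = 0.0241) and Ccr1 (1.49 ± 0.35, adjusted p = 0.0364). Cxcl13 had a KO effect of 1.45 ± 0.51 in tumours, uncalled, and of -3.15 ± 0.33 in colitis. For libraries labelled Il1f5 KO, 2 members had a difference below 0 and 0 above, where 7.23% of all genes were called below and 10.8% above. The share below 0 was near that of all genes. DESeq2 called 4 below 0, and edgeR without the filter 4 above and 9 below. The 2 members were Cxcl13 (-2.56 ± 0.58, adjusted p = 0.0110) and Cxcl12 (-1.54 ± 0.41, adjusted p = 0.0231), whose effects in tumours, -1.19 ± 0.51 and -0.88 ± 0.42, were not called. For the Il1f9 KO the difference was also above 0 for 5 of 9 monocyte and macrophage markers, beside Ccr1, for 1 of 5 endothelial and 1 of 7 neutrophil markers and for none of 5 fibroblast markers. For the labelled Il1f5 KO it was below 0 for 2 of 5 fibroblast and 1 of 5 endothelial markers, beside Cxcl12 and Cxcl13, and for 1 marker each of monocytes and colon epithelium. Their part was not tested. The KO effects of the 2 lines were also compared within tumours, where 0 of 36 members differed in either direction and 0.0336% and 0.0448% of all genes did, with 0 above and 4 below 0 by unadjusted p under 0.05, 1 above and 3 below by DESeq2, and 7 above and 3 below in edgeR without the filter. For the Il1f9 KO, single omissions ended the call of Ccl11 (adjusted p = 0.0883 omitting colitis Il1f9 WT 2, 0.0967 omitting colitis Il1f9 KO 2 and 0.0936 omitting tumour Il1f9 WT 2) and Ccr1 (0.0517 omitting colitis Il1f9 WT 1, 0.131 omitting colitis Il1f9 WT 2, 0.161 omitting colitis Il1f9 KO 2 and 0.121 omitting tumour Il1f9 WT 2). For the labelled Il1f5 KO they ended that of Cxcl13 (adjusted p = 0.0589 omitting tumour Il1f5 WT 1 and 0.0858 omitting tumour Il1f5 KO 1) and Cxcl12 (0.0614 omitting tumour Il1f5 WT 1, 0.0639 omitting tumour Il1f5 WT 2, 0.0784 omitting tumour Il1f5 KO 1 and 0.0663 omitting tumour Il1f5 KO 2). Single libraries moved the Il1f9 difference of Cxcl13 between 3.66 omitting tumour Il1f9 KO 2 and 5.20 omitting tumour Il1f9 KO 1 and Cxcl12 between 2.14 omitting tumour Il1f9 KO 2 and 3.63 omitting tumour Il1f9 KO 1.

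A list of 44 other genes of the chemokine system, holding further ligands and receptors, scavenging receptors, signalling genes and inducing factors, was read beside the members. In Il1f9 KO colitis 1 rose and 17 of 36 tested fell, where 9.59% of all tested genes rose and 9.98% fell. Il17a, a T cell cytokine that induces neutrophil ligands, was called lower with 1 count over both KO libraries, against 121 counts over both WT libraries. Il1b, an inflammatory cytokine, had a log2 fold change of -3.11, Tnf of -2.03, and Ackr1, an endothelial receptor that scavenges chemokines, of -1.88. Of these, single omissions ended the call of Il1b (adjusted p = 0.0838 omitting KO 1, 0.157 omitting KO 2, 0.0955 omitting WT 1 and 0.0779 omitting WT 2) and Ackr1 (0.121 omitting KO 2 and 0.104 omitting WT 2). The log2 fold change lay for Il1b between -3.83 omitting KO 1 and -2.63 omitting WT 1 with 1 library left out. In colitis libraries labelled Il1f5 KO 9 rose and 7 of 36 fell, where 13.7% of all genes rose and 11.0% fell, with the interferon-induced Cxcr3 ligand Cxcl9 at a log2 fold change of -3.76 and Ackr1 at 1.48. This call was lost on omission of 1 library for Cxcl9 (adjusted p = 0.0593 omitting KO 1, 0.0558 omitting KO 2, 0.0552 omitting WT 2 and 0.0501 omitting WT 3) and Ackr1 (0.0630 omitting WT 1 and 0.0636 omitting WT 2). The log2 fold change lay for Cxcl9 between -5.19 omitting KO 3 and -3.30 omitting KO 2 with 1 library left out. Cxcr3 itself was not called there (0.61 ± 0.43, adjusted p = 0.315). In tumours 0 and 0 of 40 were called higher and lower in KO than in WT of the Il1f9 line, and 0 and 0 in the Il1f5 line. Between the lines, 13 of 40 were higher and 4 lower in Il1f9 WT than in Il1f5 WT tumours, where 16.8% of all genes were higher and 11.7% lower. Among those called were Ccrl2, which binds chemerin, at a log2 fold change of 2.96, Nfkbia, the NF-kappa-B inhibitor, at 2.34 and Nfkbiz, a cofactor of NF-kappa-B, at 1.81. Leaving out 1 library ended it for Nfkbia (adjusted p = 0.0709 omitting Il1f5 WT 1 and 0.0682 omitting Il1f5 WT 2) and Nfkbiz (0.0620 omitting Il1f5 WT 1 and 0.0672 omitting Il1f5 WT 2). The log2 fold change lay for Ccrl2 between 2.21 omitting Il1f9 WT 1 and 3.48 omitting Il1f9 WT 2 and Nfkbia between 1.49 omitting Il1f9 WT 1 and 2.90 omitting Il1f9 WT 2 with 1 library left out. In tumours against colitis 20 of 41 were higher and 7 lower, where 36.5% of all genes were higher and 36.1% lower. Of those higher, 5 passed the filter through the tumours alone, namely Ppbp, Ccl1, Cxcl15, Ccr8 and Cxcr1, and are given without a test. Ackr4, a scavenger of Ccl19 and Ccl25, had a log2 fold change of -2.18.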

How the data were processed

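Poly(A) RNA from 18 mouse libraries was made with a non-directional kit, per the labels' protocols, so overlapping and antisense genes cannot be told apart. Reads were handled with Trim Galore 0.6.4, HISAT2 2.0.5 and featureCounts 2.0.0, per the submitters' processing notes. With a genome build not given in the sources used here, coordinates of the 39 genes were compared with GENCODE M21 (GRCm38) and were the same. The authors deposited raw counts per gene and FPKM values in 3 tables. FPKM, as deposited by the authors, served only to compare levels between genes.

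Counts were tested in edgeR 4.0.16 under R 4.3.3, with TMM scaling, filterByExpr on the groups, one mean per group and robust quasi-likelihood F tests. Colitis libraries and tumour libraries were fitted separately, and all 18 together for comparisons across tissues. P-values were adjusted by Benjamini-Hochberg over all genes tested, with calls at 0.05. The steps were tested on simulated data. DESeq2 1.42.0, its size factors, no filter, a replicate block, fits of only the compared groups and omission of single libraries were alternatives. Tables and figures used Python 3.11.15 with numpy 2.4.6, pandas 2.3.3 and matplotlib 3.10.9.

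Members and lists were chosen with earlier results of these data known. The comparison of lines in KO tumours, the contrast of tissue differences between lines, the tissue difference per line and the crossed block were added after seeing the data. Values per library are given for the called members of largest fold change in a comparison and for a written list of main ligands and receptors, others by range or fold change. Within groups, no library was a copy of another, with a chi-square per gene between libraries of a group of 6.19 to 95.5, and libraries of different groups were not compared in this way.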

Additional observations from a re-analysis of the deposited data

Results flagged for a closer look

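In colitis, the change in libraries labelled Il1f5 KO minus the change in Il1f9 KO libraries differed from 0, by a contrast of the 2 contrasts in edgeR, for 13 of 36 members, all above 0. Of all genes, 12.8% were called above 0 and 12.0% below. Values are log2 differences with their SE. For the neutrophil ligands and their receptor these were Cxcl3 (5.43 ± 1.08, adjusted p = 0.0123), Cxcl2 (5.21 ± 1.19, adjusted p = 0.0231), Cxcr2 (4.17 ± 0.72, adjusted p = 0.00550) and Cxcl5 (1.90 ± 0.56, adjusted p = 0.0467). For the receptors of monocytes, T cells and dendritic cells they were Ccr1 (2.41 ± 0.33, adjusted p = 0.00118), Cxcr3 (2.11 ± 0.66, adjusted p = 0.0373), Ccr2 (1.72 ± 0.29, adjusted p = 0.00320) and Ccr7 (1.16 ± 0.38, adjusted p = 0.0449). The remaining ligands were Cxcl13 (4.52 ± 0.42, adjusted p = 0.000493), Ccl11 (2.64 ± 0.46, adjusted p = 0.00506), Cxcl12 (1.94 ± 0.15, adjusted p = 0.000291), Ccl9 (1.70 ± 0.19, adjusted p = 0.000569) and Cxcl16 (0.63 ± 0.17, adjusted p = 0.0241). On omission of 1 library the call was also lost for Cxcl5 (adjusted p = 0.0812 omitting Il1f5 WT 1, 0.0962 omitting Il1f5 WT 2, 0.0748 omitting Il1f5 WT 3, 0.0912 omitting Il1f9 WT 1, 0.147 omitting Il1f9 WT 2 and 0.149 omitting Il1f9 KO 2), Ccr7 (0.0935 omitting Il1f5 WT 1, 0.0594 omitting Il1f5 WT 2, 0.0627 omitting Il1f5 WT 3, 0.0869 omitting Il1f5 KO 1, 0.0583 omitting Il1f5 KO 2, 0.221 omitting Il1f9 WT 2, 0.118 omitting Il1f9 KO 1 and 0.108 omitting Il1f9 KO 2), Cxcr3 (0.0529 omitting Il1f5 WT 1, 0.07995 omitting Il1f5 WT 2, 0.0683 omitting Il1f5 WT 3, 0.0626 omitting Il1f5 KO 1, 0.0545 omitting Il1f5 KO 3, 0.154 omitting Il1f9 WT 2, 0.0903 omitting Il1f9 KO 1 and 0.115 omitting Il1f9 KO 2) and Cxcl16 (0.0598 omitting Il1f5 WT 1, 0.0597 omitting Il1f5 WT 2, 0.0612 omitting Il1f9 WT 1, 0.0585 omitting Il1f9 KO 1 and 0.0857 omitting Il1f9 KO 2).

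The effect of the Il1f9 KO differed between the tissues, tumours minus colitis, for Cxcl13 (4.63 ± 0.63, adjusted p = 0.00591), Cxcl12 (3.07 ± 0.47, adjusted p = 0.0102), Ccl11 (2.61 ± 0.53, adjusted p = 0.0241) and Ccr1 (1.49 ± 0.35, adjusted p = 0.0364). For libraries labelled Il1f5 KO the same difference was below 0 for Cxcl13 (-2.56 ± 0.58, adjusted p = 0.0110) and Cxcl12 (-1.54 ± 0.41, adjusted p = 0.0231). Slfn8 and Nlrp1b, on chromosome 11 with Ccl11, were called above 0 for the Il1f9 KO and for the labelled Il1f5 KO. The part of these 2 genes was not tested. Of all genes, 1.65% were called above 0 and 0.82% below for the Il1f9 KO. For the labelled Il1f5 KO 10.8% were called above and 7.23% below, against 0 and 2 of 37 members, so the share below 0 was near that of all genes.

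The difference between tumours and colitis, Il1f9 line minus Il1f5 line, was above 0 for 14 of 37 members and below 0 for 4, where 16.8% of all genes were called above and 16.0% below. Among neutrophil genes it was Cxcl2 (4.53 ± 0.77, adjusted p = 0.00125), Cxcl3 (3.52 ± 0.76, adjusted p = 0.00492), Cxcl1 (3.50 ± 0.79, adjusted p = 0.00633), Cxcr2 (3.12 ± 0.49, adjusted p = 0.000474) and Cxcl5 (1.99 ± 0.37, adjusted p = 0.00150). Among CC ligands above 0 it was Ccl4 (4.10 ± 1.18, adjusted p = 0.0215), Ccl3 (3.96 ± 1.15, adjusted p = 0.0223), Ccl8 (2.23 ± 0.61, adjusted p = 0.0145), Ccl7 (1.95 ± 0.61, adjusted p = 0.0282), Ccl17 (1.92 ± 0.70, adjusted p = 0.0448) and Ccl6 (0.78 ± 0.17, adjusted p = 0.00214). The other members above 0 were Ccr1 (2.31 ± 0.24, adjusted p = 1.23e-05), Cxcr4 (1.47 ± 0.24, adjusted p = 0.000378) and Cxcl16 (1.26 ± 0.21, adjusted p = 0.000491), and those below 0 were Ccr10 (-1.96 ± 0.46, adjusted p = 0.00419), Ccl28 (-1.55 ± 0.29, adjusted p = 0.00136), Cx3cr1 (-1.14 ± 0.29, adjusted p = 0.00739) and Ccl25 (-1.08 ± 0.25, adjusted p = 0.00449). Leaving out 1 library ended the call of Ccl4 (adjusted p = 0.0611 omitting colitis Il1f9 KO 2, 0.0540 omitting tumour Il1f5 WT 1, 0.0530 omitting tumour Il1f5 KO 2 and 0.0520 omitting tumour Il1f9 WT 1), Ccl3 (0.0660 omitting colitis Il1f9 KO 2, 0.0530 omitting tumour Il1f5 WT 2, 0.0538 omitting tumour Il1f5 KO 2 and 0.0526 omitting tumour Il1f9 WT 1), Ccl7 (0.0643 omitting colitis Il1f9 WT 1, 0.0518 omitting colitis Il1f9 KO 1, 0.0698 omitting colitis Il1f9 KO 2, 0.0724 omitting tumour Il1f5 WT 2, 0.0711 omitting tumour Il1f5 KO 1, 0.0677 omitting tumour Il1f9 WT 1 and 0.0850 omitting tumour Il1f9 KO 2) and Ccl17 (0.0779 omitting colitis Il1f5 WT 1, 0.0681 omitting colitis Il1f5 WT 3, 0.0682 omitting colitis Il1f5 KO 1, 0.0866 omitting colitis Il1f5 KO 2, 0.0828 omitting colitis Il1f9 WT 1, 0.0699 omitting colitis Il1f9 WT 2, 0.118 omitting colitis Il1f9 KO 1, 0.0575 omitting tumour Il1f5 WT 1, 0.0810 omitting tumour Il1f5 WT 2, 0.0836 omitting tumour Il1f5 KO 2, 0.0869 omitting tumour Il1f9 WT 1 and 0.101 omitting tumour Il1f9 KO 2). Single libraries moved the difference of Ccl4 between 3.32 omitting tumour Il1f9 WT 1 and 5.07 omitting colitis Il1f9 WT 1, Ccl3 between 3.24 omitting tumour Il1f9 WT 1 and 5.05 omitting colitis Il1f9 WT 1, Ccl8 between 1.23 omitting tumour Il1f9 KO 2 and 2.64 omitting tumour Il1f9 KO 1 and Ccl17 between 1.41 omitting tumour Il1f9 KO 2 and 3.97 omitting colitis Il1f9 KO 2. Slfn8 and Nlrp1b, on chromosome 11 with Ccl3, Ccl4, Ccl6, Ccl7, Ccl8, Cxcl16 and Ccr10, were above 0 too (3.90 and 2.88). The part of these 2 genes was not tested. The lines' tumours stand in separate tables, so line and handling cannot be told apart here.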

How the results depend on the processing

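Of 1796 values of called members under the alternatives, 1602 kept direction and side of the threshold, 194 kept direction only and 0 turned. Counts of called members that moved by over 1.5 times from those of edgeR were, with DESeq2, 8 higher between WT colitis lines, 1 lower in labelled Il1f5 KO tumours, 1 higher and 5 lower in Il1f9 KO tumours, 1 above and 3 below 0 for the line difference in tumours, 15 higher and 1 lower between KO tumour lines, 4 below 0 for the tissue difference of the labelled Il1f5 KO and 7 above 0 for that of the Il1f9 KO. Without the filter on low counts they were 1 higher and 4 lower in labelled Il1f5 KO tumours, 4 higher and 9 lower in Il1f9 KO tumours, 7 above and 3 below 0 for the line difference in tumours, 19 higher and 1 lower between KO tumour lines, 4 above and 9 below 0 for the labelled Il1f5 KO across tissues, and 18 above and 1 below 0 for the Il1f9 KO across tissues. Fitting only the compared groups gave 9 higher between WT colitis lines and 1 lower in labelled Il1f5 KO tumours, and the Il1f5 line alone had 8 members higher in tumours than in colitis. The cause of these changes was not tested.

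Leaving out single libraries gave 0 to 0 higher and 8 to 10 lower in Il1f9 KO colitis, 3 to 5 higher and 0 to 3 lower in colitis labelled Il1f5 KO, 3 to 7 higher and 0 to 1 lower between WT colitis lines and 7 to 13 higher and 0 to 1 lower for the line difference of the KO effects in colitis. In tumours it gave 0 to 1 higher and 0 to 2 lower for the Il1f9 KO, 0 to 0 higher and 0 to 0 lower for the labelled Il1f5 KO, 0 to 0 higher and 0 to 2 lower for their difference, 6 to 12 higher and 1 to 2 lower between WT lines and 3 to 17 higher and 0 to 1 lower between KO lines. Across tissues it gave 14 to 16 higher and 14 to 17 lower over all groups, 10 to 19 higher and 4 to 6 lower for the line difference, 2 to 8 higher and 0 to 0 lower for the Il1f9 KO and 0 to 0 higher and 0 to 3 lower for the labelled Il1f5 KO. Where an arm was left with 1 library, that library was assumed to vary like the other groups.

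Libraries with the same replicate number deviated from their group means with correlations of -0.229 to 0.00276, so the numbers were not taken to pair the libraries. With the number as a replicate block, 11 of 12 calls were kept in Il1f9 KO colitis, 6 of 7 in colitis labelled Il1f5 KO, where 1 member was lower, 5 of 6 between WT colitis lines, where 0 were lower, 10 of 13 for the line difference of KO effects in colitis, 16 of 16 between WT tumour lines, 7 of 9 between KO tumour lines, 29 of 30 between tissues, 3 of 4 for the Il1f9 KO across tissues, 2 of 2 for the labelled Il1f5 KO across tissues and 16 of 18 for the line difference across tissues. The calls lost with the block were Ccl22 (adjusted p = 0.0590) in colitis labelled Il1f5 KO, Cxcl5 (0.0866) in Il1f9 KO colitis, Ccl6 (0.07001) between WT colitis lines, Cxcl5 (0.111), Ccr7 (0.0652) and Cxcr3 (0.0652) for the line difference of KO effects in colitis, Ccl6 (0.0549) and Cxcl3 (0.0645) between KO tumour lines, Ccl7 (0.0859) between tissues, Ccr1 (0.0545) for the Il1f9 KO across tissues and Ccl17 (0.0568) and Ccl7 (0.0646) for the line difference across tissues. With crossed numbers as the block, 11 of 12 calls were kept in Il1f9 KO colitis with Cxcl5 lost (0.0970), and 1 was gained, and 0 were called in Il1f9 KO tumours. With 2 libraries in most groups, tumour comparisons in particular could miss differences, and genes near the floor of 3 counts carry counting error of their own size.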
